A study of Mus musculus with 12 samples.

Results

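The genes described here are those that encode the chains of the collagens, the trimeric proteins that form most of the fibrous part of the extracellular matrix. They were taken as every protein-coding gene whose symbol reads Col, a type number, the letter a and a chain number, which gave 44 of the 55487 genes measured. Of these 44 genes, 40 reached at least 1 CPM (counts per 1000000 reads assigned to genes) in at least 3 libraries and were tested. RNA was sequenced from 4 populations of cancer-associated fibroblasts sorted out of the mammary tumours of 3 untreated mice aged 10 weeks. The library titles carry the numbers 27, 30 and 31, which were taken as the 3 mice, although no label says so outright. All mice were FVB MMTV-PyMT, meaning that the promoter of mouse mammary tumour virus expresses polyoma middle T, an oncogene, in their mammary epithelial cells. No tumour-free tissue or other strain was among the samples, so each level is set against the other sorted populations. Sorted cells of every population were alive, lacked CD45, CD31 and EPCAM, and carried PDGFRb. The vcaf cells lacked Ly6C and PDGFRa and carried CD146. The icaf cells carried Ly6C. The m2cafpos cells lacked Ly6C and CD146 and carried PDGFRa and NCAM, and the m2cafneg cells had the same markers without NCAM. There was 1 library per population and mouse, so each population had 3 libraries. The p-values of fold changes rest on a spread between libraries pooled over the 4 populations, without pairing by mouse unless stated.

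A collagen molecule is a triple helix of 3 chains, which can be copies of one chain or products of different genes. The fibrillar collagens, led by types I, III and V, assemble into the banded fibrils that give a tissue its tensile strength, and the FACIT collagens (fibril-associated collagens with interrupted triple helices) coat those fibrils. Type IV collagens build the sheet of the basement membrane, the multiplexins XV and XVIII sit in the basement membrane zone, type VI forms beaded microfilaments, type VIII forms hexagonal lattices and type VII forms the anchoring fibrils that tie a basement membrane to the matrix beneath it. The transmembrane collagens stay attached to the cell that makes them. In mammary tumours, fibroblasts are the main known source of fibrillar collagen, and cells around vessels are a known source of basement membrane.

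The 44 genes comprised 11 fibrillar genes (11 tested), 9 FACIT genes (7 tested), 6 type IV genes (5 tested), 3 genes of the hexagonal networks (3 tested), 8 beaded filament genes with Col26a1 and Col28a1 placed among them (7 tested), 1 anchoring gene (1 tested), 4 transmembrane genes (4 tested) and 2 multiplexin genes (2 tested). The 4 genes that were not tested stayed low. Col19a1, a FACIT gene, reached 3.68 CPM in icaf mouse 31 and at most 0.196 CPM in any other library. Col4a3, the partner of Col4a4 in the kidney basement membrane, reached at most 1.51 CPM, Col6a4 at most 0.521 CPM and Col22a1 at most 0.108 CPM.

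The libraries held 43898839 to 55363203 reads assigned to genes, and a single read stood for 0.0181 to 0.0228 CPM. The labelled cell types were set against marker genes. The sum of 9 fibroblast markers was 562 to 778 CPM in vcaf, 21246 to 24078 CPM in icaf, 14755 to 16129.6 CPM in m2cafpos and 13377 to 23195 CPM in m2cafneg. The sum of 10 pericyte and smooth muscle markers was 36674 to 58164 CPM in vcaf, 179.9 to 406 CPM in icaf, 324 to 421 CPM in m2cafpos and 175 to 607 CPM in m2cafneg. Although EPCAM-positive cells were gated out, all of 12 luminal epithelial markers were detected, and their sum was 9760.3 to 19009 CPM in vcaf, 1319 to 3289.6 CPM in icaf, 703 to 3402 CPM in m2cafpos and 6147 to 13779 CPM in m2cafneg. The sum of 10 endothelial markers was 474 to 691 CPM in vcaf, 168 to 296 CPM in icaf, 66.1 to 119.8 CPM in m2cafpos and 208 to 538 CPM in m2cafneg. Although CD45-positive cells were gated out too, 10 macrophage markers summed to 561 to 1349.9 CPM in vcaf, 94.6 to 214 CPM in icaf, 152 to 236 CPM in m2cafpos and 606 to 983 CPM in m2cafneg. The luminal epithelial sum was thus higher in every vcaf and m2cafneg library than in any icaf or m2cafpos library, as was the macrophage sum. Cd14 averaged 750 CPM in vcaf and 504 CPM in m2cafneg, most of the macrophage sum there. Cd68 averaged 25.9 CPM in vcaf, 4.66 CPM in icaf, 6.34 CPM in m2cafpos and 19.1 CPM in m2cafneg. In icaf most of the endothelial sum was Tek, at a mean of 165 CPM. The epithelial sum went with the population, so a fit with it as a covariate cannot fully tell them apart. Beyond such fits, the part of these markers in the results was not tested.

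The sequences just before the start sites are shown for 4 chains that stood at opposite ends of the populations: Col1a2 and Col3a1 (lowest in vcaf), Col8a1 (highest in m2cafpos) and Col4a2, which starts 21 bases from Col4a1 on the other strand (both highest in vcaf). Each window of 300 bases spans the start site, is read 5′ to 3′ on the strand of the gene and comes from RefSeq on GRCm38.p6. Capitals mark matches on either strand to 4 short motifs. The promoter box that positions transcription was searched as the letters TATAAA, at any place in the window. The element bound by the factor NF-Y was searched as CCAAT. The element bound by Sp proteins was searched as GGGCGG. The repeat bound by Smad proteins was searched as CAGACA. The windows lie at chr6:4505368-4505667 for Col1a2 (plus strand), chr1:45311288-45311587 for Col3a1 (plus strand), chr8:11312555-11312854 for Col4a2 (plus strand) and chr16:57754688-57754987 for Col8a1 (minus strand).
Col1a2: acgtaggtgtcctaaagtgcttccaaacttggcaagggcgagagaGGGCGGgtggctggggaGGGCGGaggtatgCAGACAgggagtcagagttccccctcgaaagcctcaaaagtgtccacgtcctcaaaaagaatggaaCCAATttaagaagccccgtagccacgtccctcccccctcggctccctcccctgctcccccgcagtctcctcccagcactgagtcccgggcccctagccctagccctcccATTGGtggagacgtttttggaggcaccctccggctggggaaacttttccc
Col3a1: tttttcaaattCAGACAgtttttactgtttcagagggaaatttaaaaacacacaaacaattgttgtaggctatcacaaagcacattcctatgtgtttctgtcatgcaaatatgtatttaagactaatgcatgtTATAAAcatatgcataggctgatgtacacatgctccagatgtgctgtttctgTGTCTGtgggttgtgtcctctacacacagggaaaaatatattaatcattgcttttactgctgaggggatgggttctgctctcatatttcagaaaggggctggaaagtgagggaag
Col4a2: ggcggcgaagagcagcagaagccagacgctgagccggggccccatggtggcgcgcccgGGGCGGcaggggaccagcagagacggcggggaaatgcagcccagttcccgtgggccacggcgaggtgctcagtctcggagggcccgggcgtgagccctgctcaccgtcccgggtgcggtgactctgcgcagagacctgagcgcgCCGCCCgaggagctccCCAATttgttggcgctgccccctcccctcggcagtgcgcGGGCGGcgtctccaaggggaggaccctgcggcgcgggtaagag
Col8a1: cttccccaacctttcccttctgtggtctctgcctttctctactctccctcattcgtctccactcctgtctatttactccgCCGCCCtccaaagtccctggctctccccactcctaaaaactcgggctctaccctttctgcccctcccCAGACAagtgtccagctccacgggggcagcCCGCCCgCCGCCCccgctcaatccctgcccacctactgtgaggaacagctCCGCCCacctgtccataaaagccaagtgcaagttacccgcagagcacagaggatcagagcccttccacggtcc

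Col3a1 held a TATAAA match, at position -117 from the start site, and no GGGCGG match in its window. Col1a2, Col4a2 and Col8a1 all held GGGCGG matches and no TATAAA match. Over the 35 collagen genes with a window (38 windows), GGGCGG was found in 60.5% of windows, against 35.7% of all 32851 promoter windows of the same length. TATAAA was found in 13.2% of collagen windows and 13.6% of all windows, CCAAT in 34.2% and 37.4%, and CAGACA in 23.7% and 21.0%. No motif contains another, and a match describes letters only.

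Collagen chains made up a different share of the RNA in each population, and the mix of classes differed as well. Reads in the 44 genes were 2.59%, 2.58% and 1.99% of all reads in vcaf, 7.26%, 7.49% and 7.65% in icaf, 17.0%, 16.0% and 17.3% in m2cafpos, and 10.3%, 9.01% and 8.29% in m2cafneg. No population overlapped another in this share. With Col1a1 left out of the chains and the total, icaf (4.31%, 4.46% and 4.77%) and m2cafneg (4.70%, 4.75% and 4.21%) overlapped, while vcaf and m2cafpos stayed apart. In bulk samples, fewer cells of a type and less RNA per cell cannot be told apart. Of the reads in collagen chains, fibrillar genes held 54.0% ± 1.03 (SD, n = 3) in vcaf, 88.6% ± 0.197 in icaf, 89.1% ± 0.839 in m2cafpos and 85.5% ± 1.75 in m2cafneg. Type IV genes held 24.5% ± 1.18 in vcaf, 1.497% ± 0.189 in icaf, 0.895% ± 0.0566 in m2cafpos and 2.62% ± 0.494 in m2cafneg. The multiplexins held 6.77% ± 0.342 of collagen reads in vcaf, 0.520% ± 0.0757 in icaf, 0.578% ± 0.0301 in m2cafpos and 1.53% ± 0.0490 in m2cafneg. The vcaf collagen RNA was thus poorer in fibril chains and richer in basement membrane chains than that of the other 3 populations in all 3 mice.

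**Figure D1:**
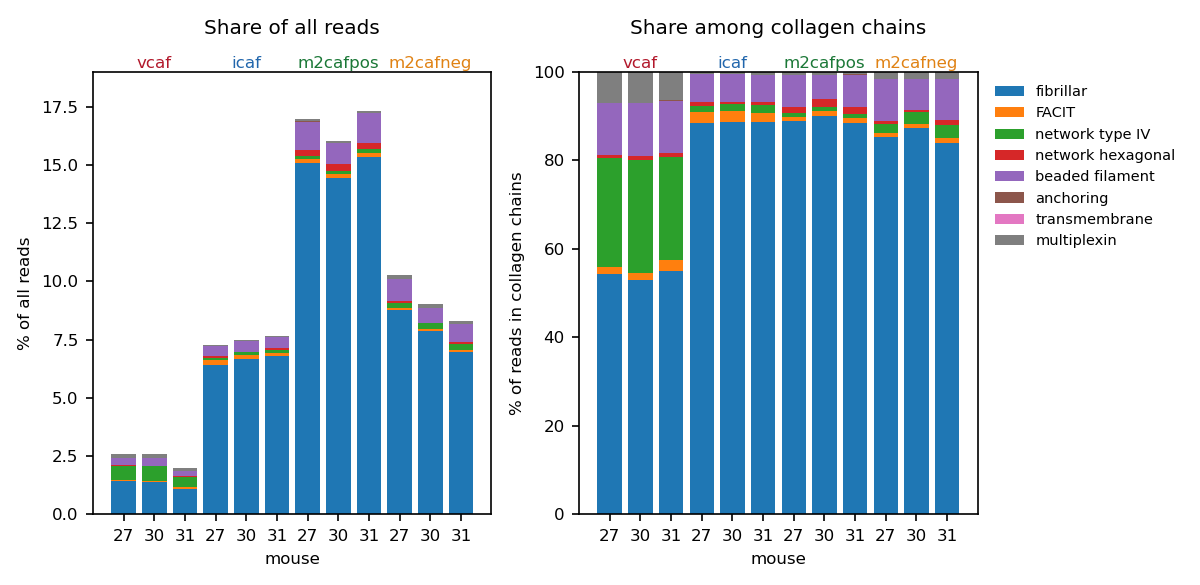
Stacked bars give, for each of the 12 libraries (mouse number on the x axis, populations above), the percent of all reads (left) and the percent of reads in collagen chains (right) held by each collagen class. The m2cafpos bars reach 16.0% to 17.3% of all reads and the vcaf bars 1.99% to 2.59%, and only in vcaf does type IV hold more than 20% of collagen reads.

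**Figure D2:**
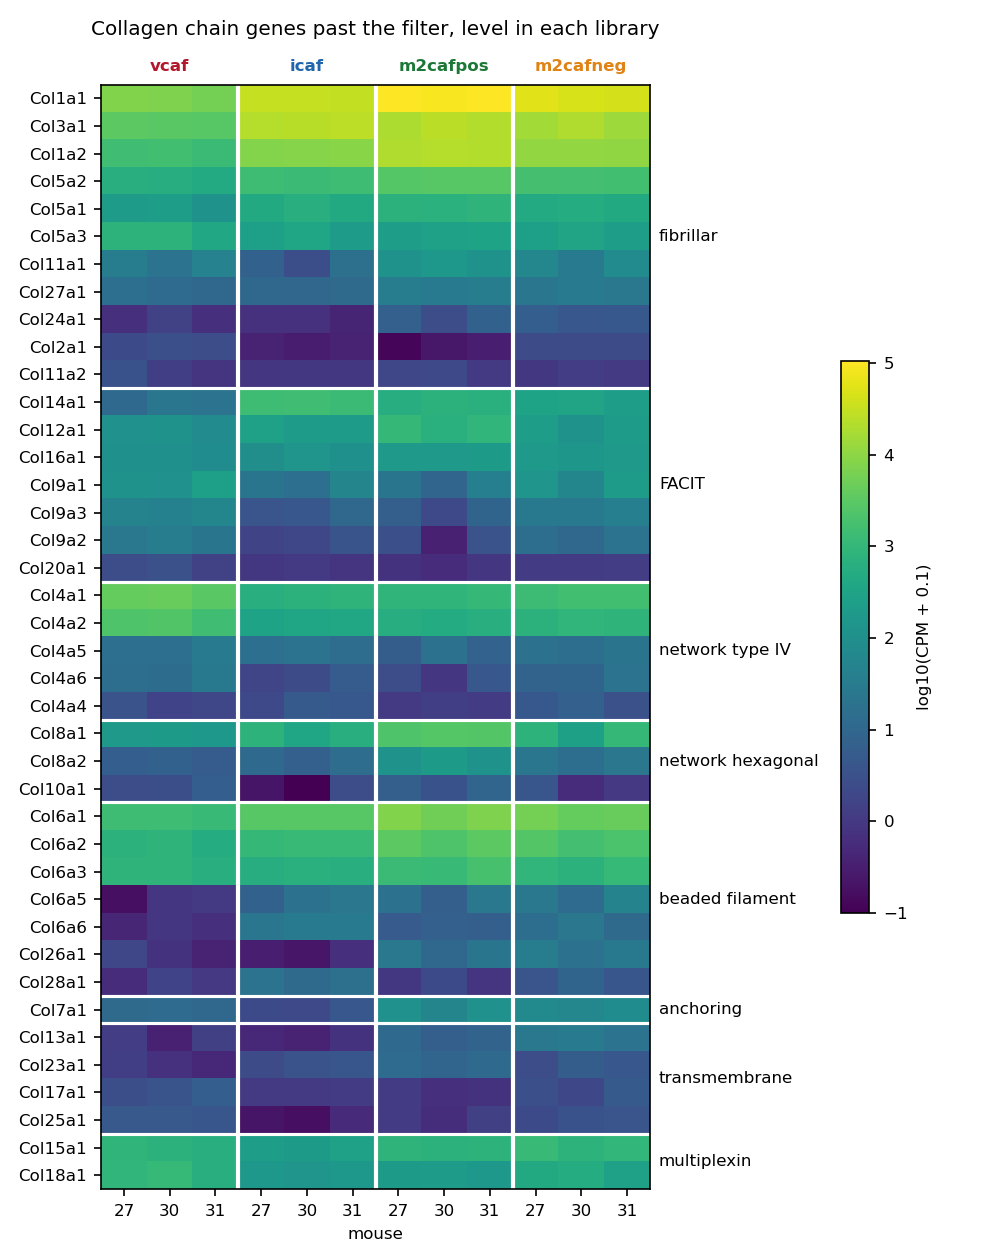
Each row is 1 of the 40 tested chains and each column 1 library, coloured by log10(CPM + 0.1), with the populations separated by white lines and the classes named on the right. The first rows show Col1a1, Col3a1 and Col1a2 as the most abundant chains in icaf, m2cafpos and m2cafneg, and the rows of Col4a1 and Col4a2 are brightest in vcaf.

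Nearly every tested chain differed somewhere among the 4 populations. In limma's F test on log2(CPM + 1), 38 of the 40 chains had an adjusted p under 0.05, beside 73.0% of all 15456 genes tested. The chains that did not pass were Col11a2 (adjusted p = 0.265) and Col4a5 (adjusted p = 0.0617, or 0.0472 in the limma fit with the mouse as a block). Each comparison below was tested with limma and with Benjamini-Hochberg adjustment across all 15456 genes, with log2 fold changes (first-named population over the others) on the log2(CPM + 1) scale, which understates changes of low genes.

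The first comparison was of vcaf with the average of icaf, m2cafpos and m2cafneg. Most fibrillar and beaded filament chains were lower in vcaf, and the basement membrane chains Col4a1, Col4a2 and Col18a1 were higher. Of 40 chains, 13 were higher (53.3% of all genes were higher) and 21 were lower (14.2% of all genes were lower), and 6 did not pass. The median log2 fold change was -0.64 over the chains and 0.38 over all genes. With median-of-ratios scaling, which centres all genes near 0 by construction (their median was 0.01), 12 chains were higher and 22 lower, and the median of the chains was -1.04. By class, 7 of 11 fibrillar chains were lower and 2 higher (Col5a3 and Col2a1), 6 of 7 beaded filament chains were lower, 2 of 3 hexagonal network chains were lower and 2 of 4 transmembrane chains were lower and 2 higher. In the other direction, 3 of 5 type IV chains and both multiplexins were higher, and the FACIT class was split, with 4 of 7 higher and 3 lower. With the summed luminal epithelial markers as a covariate, the calls of Col4a6, Col9a1, Col15a1, Col17a1 and Col28a1 in vcaf ended (limma adjusted p 0.0673 to 0.661).

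The second comparison set icaf against the mean of m2cafpos and m2cafneg. Fold changes given below for icaf against both m2caf populations are against that mean, not against each population. Here the chains mostly fell in icaf, with 3 exceptions. Of 40 chains, 24 were lower (14.2% of all genes), 13 did not pass, and 3 were higher (12.1% of all genes), namely Col14a1, Col6a6 and Col28a1. The median log2 fold change was -0.87 over the chains and -0.01 over all genes. Lower chains came from every class, with 7 of 11 fibrillar, 3 of 7 FACIT, 2 of 5 type IV, 2 of 3 hexagonal, 4 of 7 beaded filament, the anchoring chain, 3 of 4 transmembrane and both multiplexins. With the mouse as a block, Col10a1, Col4a6, Col9a1 and Col9a2 also passed as lower, with limma adjusted p of 0.0124, 0.0147, 0.00156 and 0.0245, against 0.0532, 0.221, 0.224 and 0.0540 without it. The lower call of Col9a3 (-1.09, limma adjusted p = 0.0383) ended without vcaf mouse 27, icaf mouse 27 or 30, m2cafpos mouse 27 or 31, or m2cafneg mouse 31 (adjusted p 0.0504 to 0.186), and those of Col12a1, Col23a1 and Col8a1 ended as given with each gene. All 4 of these calls also ended with the summed epithelial markers as a covariate (limma adjusted p 0.0634 to 0.316).

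The third comparison set m2cafpos against m2cafneg, gates that differed only in NCAM. Of 40 chains, 10 were higher in m2cafpos (3.51% of all genes were higher) and 14 were lower (22.6% of all genes were lower), and 16 did not pass. The median log2 fold change was 0.04 over the chains and -0.23 over all genes. With median-of-ratios scaling, which put the median of all genes at 0.01, 14 chains were higher and 12 lower. The higher chains were Col8a2, Col12a1, Col8a1, Col23a1, Col14a1, Col1a1, Col1a2, Col5a2, Col5a1 and Col6a3, of which Col1a1, Col5a1 and Col6a3 lost the call with single libraries left out, as given with each gene. The lower chains included all 3 type IX chains, 4 of 5 type IV chains and 3 of 4 transmembrane chains. Summed luminal epithelial markers did not overlap between the same libraries (703 to 3402 CPM in m2cafpos, 6147 to 13779 CPM in m2cafneg). With that sum as a covariate 19 of the 24 calls ended, but the fit cannot tell the sum apart from the population. The calls that remained were those of Col8a2 and Col12a1 as higher and of Col18a1, Col28a1 and Col2a1 as lower, and 2 chains, Col7a1 and Col10a1, were added as higher (limma adjusted p = 0.0368 and 0.0216).

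**Figure D3:**
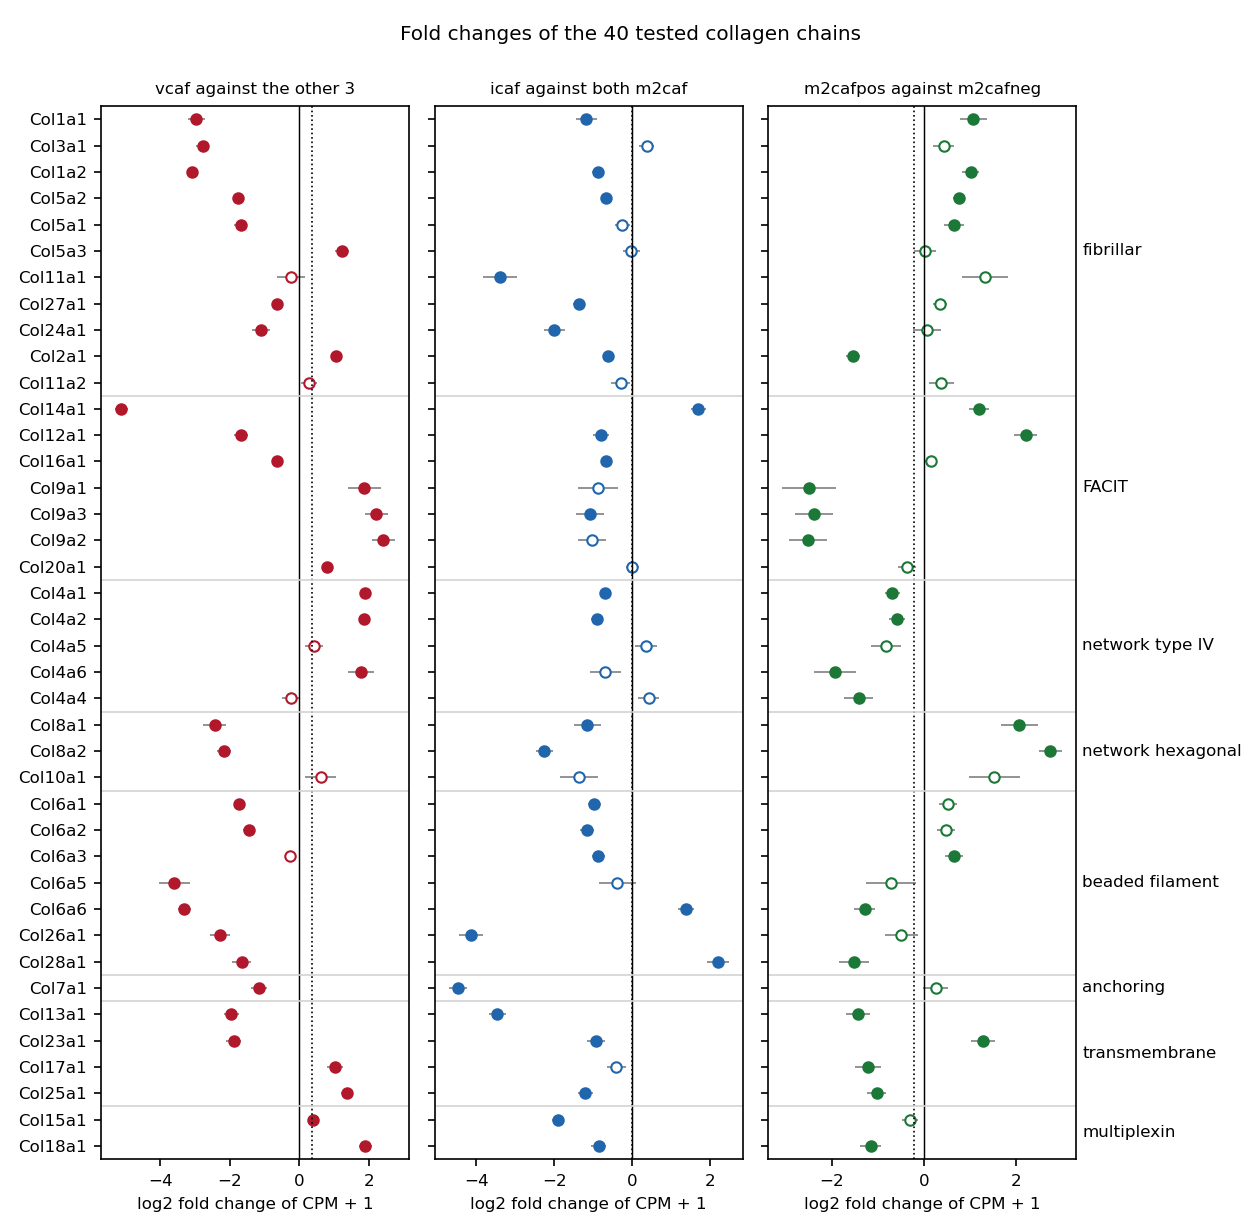
Points give the log2 fold change of CPM + 1 for each of the 40 tested chains in the 3 comparisons, with bars for the standard error, filled points for an adjusted p under 0.05 and a dotted line at the median of all genes. Most fibrillar and beaded filament chains lie left of 0 in vcaf, most chains lie left of 0 in icaf, and the m2cafpos panel is split between classes.

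Types I and III are the bulk fibril collagens, and their 3 genes were the most abundant chains in icaf, m2cafpos and m2cafneg. Col1a1, the chain present as a pair of copies in a type I molecule, had 7671, 7267 and 5708 CPM in vcaf, 30847, 31785 and 30198 CPM in icaf, 106279.8, 92604 and 105519 CPM in m2cafpos, and 58496, 44741 and 42549.6 CPM in m2cafneg. The 4 populations did not overlap. The gene was lower in vcaf (log2 fold change -2.96 ± 0.24 SE, a 7.79-fold difference, limma adjusted p = 7.25e-07). It was also lower in icaf than in the mean of both m2caf populations (-1.17 ± 0.26, limma adjusted p = 0.00513). Col1a1 was 0.64 higher on the log2 scale in m2cafneg alone than in icaf, which did not pass (limma adjusted p = 0.130). It was higher in m2cafpos than in m2cafneg (1.07 ± 0.30, limma adjusted p = 0.0217), a call that ended without m2cafpos mouse 27 (adjusted p = 0.0621) or without m2cafneg mouse 31 (adjusted p = 0.0728).

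Col1a2, the other chain of type I, had 1527, 1631 and 1290.2 CPM in vcaf, 7944, 8484 and 8914 CPM in icaf, 20872, 22878 and 22047 CPM in m2cafpos, and 11135, 11094 and 10369 CPM in m2cafneg. It ordered the populations in the same way as Col1a1, again without overlap. It was 8.54-fold lower in vcaf (limma adjusted p = 4.11e-09) and 2.02-fold higher in m2cafpos than in m2cafneg (adjusted p = 0.00303). Per kilobase of annotated exon, the mean level of Col1a1 was 17111 CPM in m2cafpos and that of Col1a2 3966 CPM.

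Col3a1, the only chain of type III, had 3159, 3106 and 2825 CPM in vcaf, 23197, 23934 and 26519.6 CPM in icaf, 19743, 24949 and 21716 CPM in m2cafpos, and 15269.7, 20339.6 and 14215 CPM in m2cafneg. All 3 vcaf libraries lay below the rest, and the other 3 populations overlapped. It was 6.84-fold lower in vcaf (limma adjusted p = 1.08e-07), while its log2 fold change was 0.37 ± 0.20 in icaf (adjusted p = 0.192) and 0.43 ± 0.23 in m2cafpos against m2cafneg (adjusted p = 0.186).

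The minor fibrillar chains did not all follow types I and III. Type V helps start type I fibrils and limits their width. Its chains Col5a2 and Col5a1 averaged 559 ± 69.6 and 189 ± 64.2 CPM in vcaf, 1383 ± 78.7 and 523 ± 101 CPM in icaf, 2838 ± 88.3 and 777 ± 67.1 CPM in m2cafpos, and 1683 ± 89.5 and 492 ± 33.9 CPM in m2cafneg (SD, n = 3 each). Both were lower in vcaf (log2 fold changes -1.75 and -1.68) and higher in m2cafpos than in m2cafneg (0.75 with limma adjusted p = 0.00228, and 0.66 with adjusted p = 0.0470), the call of Col5a1 ending with any m2cafpos or m2cafneg library left out (adjusted p 0.0672 to 0.129) and without icaf mouse 27 or 31 (adjusted p 0.0564 and 0.0530). The remaining type V chain, Col5a3, went the other way: it averaged 663 ± 209 CPM in vcaf, 275 ± 69.8 CPM in icaf, 277 ± 41.6 CPM in m2cafpos and 274 ± 49.6 CPM in m2cafneg. It was 2.34-fold higher in vcaf (limma adjusted p = 0.000225), with no overlap between vcaf and the other 9 libraries.

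Col11a1, a minor fibrillar chain known from cartilage and from fibroblasts of several carcinomas, had 35.6, 19.6 and 46.8 CPM in vcaf, 7.27, 2.71 and 16.4 CPM in icaf, 121, 159.6 and 124 CPM in m2cafpos, and 62.9, 28.8 and 79.7 CPM in m2cafneg. The icaf libraries were lowest and the m2cafpos libraries highest, with vcaf and m2cafneg overlapping between them. It was 10.5-fold lower in icaf than in both m2caf populations (limma adjusted p = 0.000108). Its log2 fold change of 1.33 ± 0.50 in m2cafpos against m2cafneg had an adjusted p of 0.0673, or 0.0113 in the limma fit with the mouse as a block, and it also passed without icaf mouse 30 or 31 (adjusted p = 0.0325 and 0.0332). Col27a1 and Col24a1, other minor fibrillar chains, were both lower in vcaf (-0.65 and -1.10) and in icaf (-1.37 and -2.002). Col2a1, the main cartilage fibril chain, reached at most 2.86 CPM, with means of 2.53 CPM in vcaf, 0.259 CPM in icaf, 0.131 CPM in m2cafpos and 2.30 CPM in m2cafneg. Col11a2 stayed between 0.764 and 3.26 CPM and passed in none of the 3 comparisons.

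The FACIT class held the chain with the largest fold change. Col14a1, which binds the surface of type I fibrils, had 11.5, 23.5 and 19.5 CPM in vcaf, 1463, 1471 and 1273 CPM in icaf, 568, 731 and 672 CPM in m2cafpos, and 321, 324 and 226 CPM in m2cafneg. The 4 populations did not overlap, with icaf highest and vcaf lowest. It was 34.7-fold lower in vcaf (log2 fold change -5.12 ± 0.18, limma adjusted p = 3.93e-10), 3.23-fold higher in icaf than in both m2caf populations (adjusted p = 3.77e-05) and 2.28-fold higher in m2cafpos than in m2cafneg (adjusted p = 0.00382). Its fold change in vcaf was the largest in size of all chains in the 3 comparisons.

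Col12a1, another coat of type I fibrils, had 112, 128 and 80.2 CPM in vcaf, 279.6, 209.7 and 209 CPM in icaf, 1023, 675 and 943 CPM in m2cafpos, and 242, 125 and 214 CPM in m2cafneg. The m2cafpos libraries stood above all others, and the icaf and m2cafneg libraries overlapped. It was 4.63-fold higher in m2cafpos than in m2cafneg (limma adjusted p = 0.000464) and 3.17-fold lower in vcaf (adjusted p = 2.48e-05). In icaf it was 1.74-fold lower than in the mean of both m2caf populations (limma adjusted p = 0.0166). This became 0.0767 without icaf mouse 30 and 0.0583 without icaf mouse 31. Against m2cafneg alone, Col12a1 was not lower in icaf, which lay above it by 0.30 on the log2 scale (limma adjusted p = 0.393). The related chains Col14a1 and Col12a1 therefore had their highest levels in different populations.

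Col16a1, another FACIT chain, had 107, 104 and 85.8 CPM in vcaf, 94.3, 141 and 105 CPM in icaf, 179.7, 186 and 195 CPM in m2cafpos, and 176, 157 and 173 CPM in m2cafneg. The vcaf and icaf libraries overlapped and lay below both m2caf populations. It was 1.54-fold lower in vcaf (limma adjusted p = 0.000489) and 1.58-fold lower in icaf (adjusted p = 0.00147). Col20a1 reached at most 3.03 CPM and was higher in vcaf (log2 fold change 0.80). Its exons share 79 bases with BX649560.1 on the same strand, which reached 6.91 CPM, so its reads are uncertain.

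Type IX is the FACIT coat of cartilage fibrils, made of the chains of Col9a1, Col9a2 and Col9a3. Col9a1 had 124, 114 and 252 CPM in vcaf, 22.2, 16.0 and 53.8 CPM in icaf, 22.3, 9.14 and 40.7 CPM in m2cafpos, and 139, 59.1 and 214 CPM in m2cafneg. Col9a3 had 48.6, 44.7 and 58.5 CPM in vcaf, 3.72, 4.29 and 10.7 CPM in icaf, 6.70, 2.09 and 8.84 CPM in m2cafpos, and 27.8, 26.9 and 40.9 CPM in m2cafneg. Col9a2 had 25.6, 34.7 and 22.2 CPM in vcaf, 1.60, 1.81 and 3.66 CPM in icaf, 2.80, 0.260 and 3.39 CPM in m2cafpos, and 15.2, 10.6 and 20.0 CPM in m2cafneg. The exons of Col9a3 share 234 bases with Tcfl5 on the other strand, which reached at most 0.198 CPM. For all 3 chains the vcaf and m2cafneg libraries lay above every icaf and m2cafpos library. They were lower in m2cafpos than in m2cafneg by log2 fold changes of -2.50, -2.39 and -2.52 for Col9a1, Col9a3 and Col9a2 (limma adjusted p = 0.0103, 0.00284 and 0.00257), and higher in vcaf by 1.88, 2.23 and 2.43 (adjusted p = 0.00412, 0.000118 and 7.55e-05).

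The type IX chains moved with the summed luminal epithelial markers from library to library, a pattern that was picked out after the values were seen. Relative to the 12 summed markers, Col9a1 differed by no more than 1.75-fold over all 12 libraries, Col4a6 by 1.87-fold and Col9a3 by 1.92-fold, whereas their CPM spanned 27.6-fold, 33.4-fold and 27.9-fold. Col17a1, a hemidesmosome chain of basal epithelium, spanned 3.94-fold on that scale and Col9a2 8.35-fold, and each of the other tested chains spanned at least 9.36-fold. A steady ratio leaves little difference once the sum is a covariate, so those fits restate it: in m2cafpos against m2cafneg the log2 fold change was then 0.04 for Col9a1, -0.04 for Col4a6, -0.64 for Col9a3 and -0.95 for Col9a2 (limma adjusted p 0.215 to 0.967). The sum of the chondrocyte list also moved with these chains. Its 9 markers summed to 154 to 168 CPM in vcaf and 36.9 to 50.2 CPM in icaf. In m2cafpos the sum was 23.2 to 39.9 CPM and in m2cafneg 99.0 to 114 CPM. Most of that sum was Sox9 and Sox5. Among the other members, Cnmd averaged 5.19 CPM in vcaf, 2.99 CPM in icaf, 0.932 CPM in m2cafpos and 8.15 CPM in m2cafneg, and Sox6 averaged 3.23 CPM in vcaf, 0.2199 CPM in icaf, 0.343 CPM in m2cafpos and 1.79 CPM in m2cafneg. Comp and Matn3 did not follow the type IX chains. Comp averaged 1.14 CPM in vcaf, 4.10 CPM in icaf, 2.07 CPM in m2cafpos and 3.29 CPM in m2cafneg. Matn3 averaged 0.124 CPM in vcaf, 0.228 CPM in icaf, 4.82 CPM in m2cafpos and 0.527 CPM in m2cafneg. Matn1 had no read in any library. Acan averaged at most 0.381 CPM and Hapln1 at most 0.153 CPM in any population. The part of other cells in the type IX levels was not tested beyond the covariate.

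**Figure D4:**
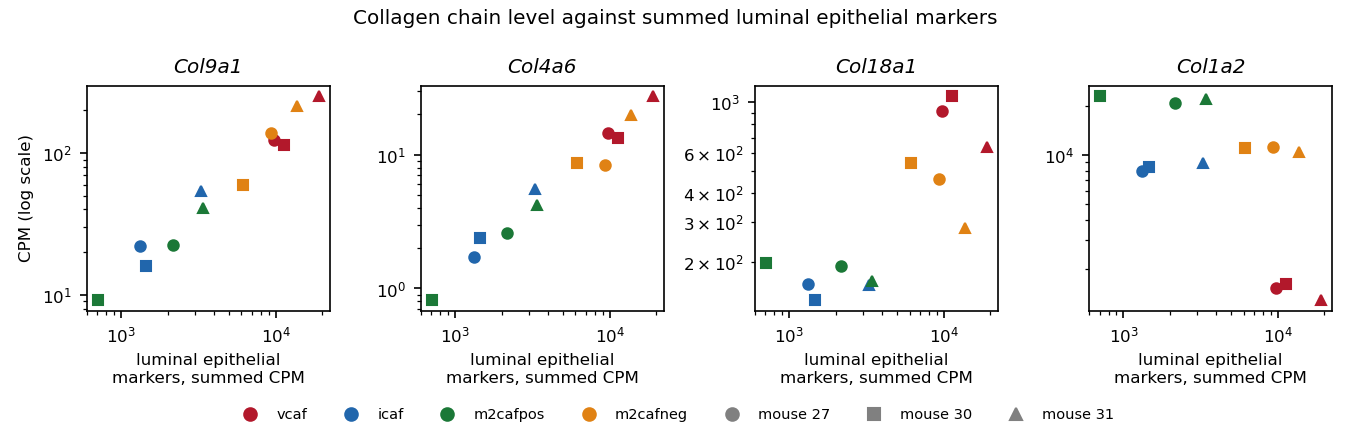
Each point is 1 library, placed by the summed CPM of 12 luminal epithelial markers (x axis, log scale) and the CPM of a chain (y axis, log scale), coloured by population and shaped by mouse. Col9a1 and Col4a6 climb with the sum across all 12 libraries (1.75-fold and 1.87-fold spread of the ratio), whereas Col18a1 and Col1a2 separate by population.

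The type IV chains Col4a1 and Col4a2 were the most abundant of the chains that were higher in vcaf. Col4a1 had 4042, 4133 and 3058 CPM in vcaf, 603, 749 and 841 CPM in icaf, 871, 885 and 1029.8 CPM in m2cafpos, and 1323, 1608 and 1556 CPM in m2cafneg. Col4a2, which joins Col4a1 in the trimer found in nearly all basement membranes, had 2309, 2417 and 1491 CPM in vcaf, 315, 374 and 407 CPM in icaf, 554, 512 and 615 CPM in m2cafpos, and 751, 942 and 837 CPM in m2cafneg. For both genes the 4 populations did not overlap, with vcaf highest, then m2cafneg, m2cafpos and icaf. They were 3.71-fold and 3.65-fold higher in vcaf (limma adjusted p = 1.73e-07 and 4.52e-07). In icaf they were lower than in the mean of both m2caf populations (log2 fold changes -0.70 and -0.91, limma adjusted p = 0.00302 and 0.000883). For Col4a1, m2cafpos alone lay above icaf by 0.35 on the log2 scale, which did not pass (limma adjusted p = 0.143). The lower calls of both genes in m2cafpos against m2cafneg (-0.69 and -0.59) ended with median-of-ratios scaling (-0.41 and -0.31, limma adjusted p = 0.117 and 0.276). That of Col4a2 also ended without m2cafpos mouse 27 or 30 or m2cafneg mouse 30 or 31 (limma adjusted p 0.0758 to 0.0965).

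Col4a1 lies on chromosome 8 from 11198423 to 11312826 (minus strand) and Col4a2 from 11312805 to 11449287 (plus strand) on GRCm38, so both start inside the Col4a2 window printed above and share 22 exon bases. The pairs Col4a4 and Col4a3 (starts 72 bases apart on chromosome 1) and Col4a6 and Col4a5 (1309 bases apart on chromosome X) are arranged in the same head-to-head way. The members of the pair on X had the same order of mean levels, but only Col4a6 passed in any of the 3 comparisons. The difference between them was not tested. Col4a5 had 15.6, 15.6 and 28.2 CPM in vcaf, 16.2, 19.2 and 14.5 CPM in icaf, 6.01, 17.4 and 7.65 CPM in m2cafpos, and 17.4, 14.6 and 20.5 CPM in m2cafneg. The 4 populations overlapped, and the gene passed in none of the 3 comparisons. Without m2cafpos mouse 30 it was lower in m2cafpos (log2 fold change -1.24, limma adjusted p = 0.0126) and higher in vcaf (0.56, adjusted p = 0.0224). Col4a6 averaged 18.4 ± 7.72 CPM in vcaf, 3.22 ± 2.04 CPM in icaf, 2.53 ± 1.69 CPM in m2cafpos and 12.3 ± 6.54 CPM in m2cafneg, and was the chain noted above for its steady ratio to the epithelial markers. Col4a4 averaged 1.09 ± 0.151 CPM in m2cafpos and 4.80 ± 1.95 CPM in m2cafneg, a lower level in m2cafpos (log2 fold change -1.42, limma adjusted p = 0.00769).

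The multiplexins are proteoglycan collagens of the basement membrane zone, and both release fragments that inhibit vessel growth. Col18a1, the source of endostatin, had 917, 1063 and 640.0 CPM in vcaf, 161, 136 and 159 CPM in icaf, 193, 198 and 166 CPM in m2cafpos, and 462, 542 and 283 CPM in m2cafneg. The 4 populations did not overlap. It was 3.76-fold higher in vcaf (limma adjusted p = 2.92e-06), 1.82-fold lower in icaf (adjusted p = 0.00592) and 2.23-fold lower in m2cafpos than in m2cafneg (adjusted p = 0.00481). Col15a1 had 890.5, 728 and 626 CPM in vcaf, 231, 191 and 288 CPM in icaf, 826, 749.6 and 778 CPM in m2cafpos, and 1167, 799 and 986 CPM in m2cafneg. Only icaf stood apart, 3.73-fold lower than both m2caf populations (limma adjusted p = 3.65e-06). Its log2 fold change of 0.40 in vcaf (adjusted p = 0.0291) turned to -0.02 with median-of-ratios scaling (adjusted p = 0.912) and -0.01 with TMM scaling (adjusted p = 0.963), and the call also ended without vcaf mouse 27 (0.26, limma adjusted p = 0.177) or vcaf mouse 30 (adjusted p = 0.0663).

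The type VIII chains had their highest levels in m2cafpos. Type VIII forms the hexagonal lattice of the corneal Descemet membrane and is also known from injured vessel walls. Col8a1 had 170.4, 190.5 and 164 CPM in vcaf, 767, 367 and 609.6 CPM in icaf, 2322, 2755 and 2575 CPM in m2cafpos, and 802, 266 and 1021 CPM in m2cafneg. Col8a2 had 6.35, 7.19 and 5.55 CPM in vcaf, 11.4, 7.14 and 14.4 CPM in icaf, 122, 194 and 122 CPM in m2cafpos, and 22.9, 15.1 and 24.2 CPM in m2cafneg. For both genes the 3 m2cafpos libraries exceeded the other 9. In m2cafpos against m2cafneg they were 4.22-fold and 6.73-fold higher (limma adjusted p = 0.00444 and 0.000155), and in vcaf 5.40-fold and 4.48-fold lower (adjusted p = 4.84e-05 and 2.95e-06). Col8a2 was 4.78-fold lower in icaf than in the mean of both m2caf populations (limma adjusted p = 1.40e-05). Col8a1 was 2.23-fold lower (limma adjusted p = 0.0263), a call that ended without icaf mouse 30 (adjusted p = 0.146) or m2cafneg mouse 27 (adjusted p = 0.0509). For Col8a1, m2cafneg alone lay above icaf by only 0.12 on the log2 scale (limma adjusted p = 0.860).

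Col10a1, the network chain of hypertrophic cartilage, was low: 2.60, 2.64 and 6.25 CPM in vcaf, 0.114, 0 and 2.55 CPM in icaf, 6.74, 3.15 and 9.36 CPM in m2cafpos, and 3.94, 0.472 and 0.912 CPM in m2cafneg. All 4 populations varied widely between mice, and the gene passed in none of the 3 comparisons without the mouse as a block. With it, Col10a1 was also higher in m2cafpos than in m2cafneg (limma adjusted p = 0.0164), and leaving out icaf mouse 31 gave adjusted p = 0.00977 for a lower level in icaf. Its exons share 18 bases with Nt5dc1 on the other strand, which reached 10.5 CPM.

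Type VI is the beaded microfilament that links cells and fibres, and its common trimer holds the chains of Col6a1, Col6a2 and Col6a3. Col6a1 had 1431, 1435 and 1184 CPM in vcaf, 2817, 2870.3 and 2861 CPM in icaf, 7511, 5378 and 7439 CPM in m2cafpos, and 6003, 3895 and 4305 CPM in m2cafneg. Col6a2 had 733, 818 and 552 CPM in vcaf, 1024, 1130.1 and 1164 CPM in icaf, 3288, 2327 and 3239 CPM in m2cafpos, and 2614, 1667 and 2106 CPM in m2cafneg. For both chains vcaf was lowest and icaf next, and the m2caf populations overlapped each other. They were 3.32-fold and 2.73-fold lower in vcaf (limma adjusted p = 1.95e-06 and 1.22e-05) and 1.96-fold and 2.24-fold lower in icaf (adjusted p = 0.00104 and 0.000340). In m2cafpos against m2cafneg their log2 fold changes were 0.53 and 0.48 (limma adjusted p = 0.0642 and 0.0963). These passed as higher with median-of-ratios scaling (0.81 and 0.76, adjusted p = 0.0195 and 0.0250), and Col6a1 also passed with the mouse as a block (limma adjusted p = 0.0317). Both passed without m2cafneg mouse 27 (0.71 and 0.64, limma adjusted p = 0.0217 and 0.0449), and Col6a1 without m2cafpos mouse 30 (0.68, adjusted p = 0.0404).

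Col6a3, the long chain of the trimer, had 847, 850.1 and 631 CPM in vcaf, 581, 663 and 597 CPM in icaf, 1282, 1155 and 1861 CPM in m2cafpos, and 919.7, 727 and 1064 CPM in m2cafneg. Unlike its partners it was not set apart in vcaf, whose libraries overlapped those of icaf and m2cafneg. Its log2 fold change in vcaf was -0.25 (limma adjusted p = 0.175), or -0.67 with median-of-ratios scaling (adjusted p = 0.00335). It was 1.83-fold lower in icaf (limma adjusted p = 0.00228) and 1.57-fold higher in m2cafpos than in m2cafneg (adjusted p = 0.0291), a call that ended without m2cafpos mouse 27 or 31 or m2cafneg mouse 27 or 30 (adjusted p 0.0508 to 0.109).

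The chains that can stand in for Col6a3 in the type VI trimer were scarce in vcaf. Col6a5 had 0.0801, 0.776 and 0.980005 CPM in vcaf, 7.35, 17.8 and 23.8 CPM in icaf, 18.8, 6.75 and 25.9 CPM in m2cafpos, and 25.4, 12.8 and 49.1 CPM in m2cafneg. Col6a6 had 0.340, 0.795 and 0.549 CPM in vcaf, 23.4, 32.0 and 29.5 CPM in icaf, 5.13, 6.88 and 6.4011 CPM in m2cafpos, and 15.3, 24.0034 and 11.9 CPM in m2cafneg. Every vcaf library was below 1 CPM for both genes, and every other library was above 5 CPM. Col6a5 was 12.05-fold and Col6a6 9.87-fold lower in vcaf (limma adjusted p = 2.79e-05 and 2.91e-08). Col6a6 was also 2.62-fold higher in icaf than in both m2caf populations (adjusted p = 0.000302), the opposite of Col6a1, Col6a2 and Col6a3, and 2.45-fold lower in m2cafpos than in m2cafneg (limma adjusted p = 0.00365).

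Col26a1 and Col28a1 had opposite patterns in icaf. Col26a1 had 1.82, 0.665 and 0.274 CPM in vcaf, 0.228, 0.138 and 0.554 CPM in icaf, 26.0, 10.5 and 21.9 CPM in m2cafpos, and 35.5, 18.5 and 26.8 CPM in m2cafneg. It was 17.6-fold lower in icaf than in both m2caf populations (limma adjusted p = 2.09e-06) and 4.83-fold lower in vcaf (adjusted p = 3.86e-05). Col28a1, known in mice from peripheral nerve, had 0.480, 1.53 and 0.902 CPM in vcaf, 19.2, 11.8 and 16.9 CPM in icaf, 0.849, 2.15 and 0.729 CPM in m2cafpos, and 3.81, 8.73 and 4.08 CPM in m2cafneg. All icaf libraries lay above all others. It was 4.56-fold higher in icaf than in both m2caf populations (limma adjusted p = 0.000119) and 2.87-fold lower in m2cafpos than in m2cafneg (adjusted p = 0.00728). The 10 Schwann cell markers summed to 171 to 204 CPM in vcaf, 30.4 to 172 CPM in icaf, 29.8 to 85.6 CPM in m2cafpos and 105 to 149.8 CPM in m2cafneg. Among them Sox10 averaged 101 CPM in vcaf, 14.8 CPM in icaf, 15.2 CPM in m2cafpos and 71.4 CPM in m2cafneg, and Ngfr averaged 21.4 CPM in vcaf, 48.99 CPM in icaf, 22.3 CPM in m2cafpos and 26.2 CPM in m2cafneg. Their part in the level of Col28a1 was not tested.

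Type VII anchors epithelial basement membranes to the stroma, and both keratinocytes and fibroblasts are known to make it. Its gene Col7a1 had 12.3, 12.8 and 11.03 CPM in vcaf, 2.11, 2.06 and 4.28 CPM in icaf, 113, 54.5 and 111 CPM in m2cafpos, and 76.6, 62.5 and 84.1 CPM in m2cafneg. The m2caf populations overlapped each other and lay above vcaf, which lay above icaf. It was 22.1-fold lower in icaf than in both m2caf populations (log2 fold change -4.47 ± 0.24, limma adjusted p = 2.41e-07), the largest change of any chain in that comparison, and 2.24-fold lower in vcaf (adjusted p = 0.000699). In m2cafpos against m2cafneg its log2 fold change was 0.25 ± 0.27 (limma adjusted p = 0.525).

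The transmembrane chains were low in all populations, at most 29.3 CPM in any library, and fell into opposite patterns. Col13a1, a chain found at cell contacts and at the neuromuscular junction, had 1.12, 0.259 and 1.27 CPM in vcaf, 0.361, 0.295 and 0.653 CPM in icaf, 11.1, 6.71 and 8.25 CPM in m2cafpos, and 26.3, 29.3 and 19.9 CPM in m2cafneg. It was the only chain past the test as highest in m2cafneg against each of the other 3 populations, beside 0.408% of all genes. It was 10.98-fold lower in icaf than in both m2caf populations (limma adjusted p = 7.99e-07), and its 2.71-fold lower level in m2cafpos (adjusted p = 0.00333) had an adjusted p of 0.0675 with edgeR. Col23a1 had 1.22, 0.628 and 0.392 CPM in vcaf, 2.22, 3.42 and 3.96 CPM in icaf, 12.9, 9.32 and 11.6 CPM in m2cafpos, and 2.57, 5.89 and 4.12 CPM in m2cafneg. All m2cafpos libraries stood above the rest, with a 2.43-fold higher level than in m2cafneg (limma adjusted p = 0.00665). In icaf it was 1.89-fold lower than in the mean of both m2caf populations (limma adjusted p = 0.0117, or 0.0773 without icaf mouse 27). The icaf libraries overlapped those of m2cafneg, which alone lay above icaf by 0.28 on the log2 scale (limma adjusted p = 0.473).

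Col17a1 had 2.76, 3.59 and 6.06 CPM in vcaf, 0.969, 0.983 and 1.05 CPM in icaf, 1.07, 0.538 and 0.661 CPM in m2cafpos, and 2.81, 1.93 and 4.98 CPM in m2cafneg. Its vcaf and m2cafneg libraries overlapped and lay above the rest, as the epithelial markers did, and with their sum as a covariate its log2 fold change in vcaf was 0.48 (limma adjusted p = 0.293), against 1.04 without it (adjusted p = 0.00157). Col25a1, known from neurons, averaged 4.46 ± 0.385 CPM in vcaf, 0.209 ± 0.197 CPM in icaf, 0.958 ± 0.387 CPM in m2cafpos and 2.99 ± 0.817 CPM in m2cafneg. It was 2.61-fold higher in vcaf (limma adjusted p = 2.89e-05) and 2.30-fold lower in icaf (adjusted p = 0.000399).

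**Figure D5:**
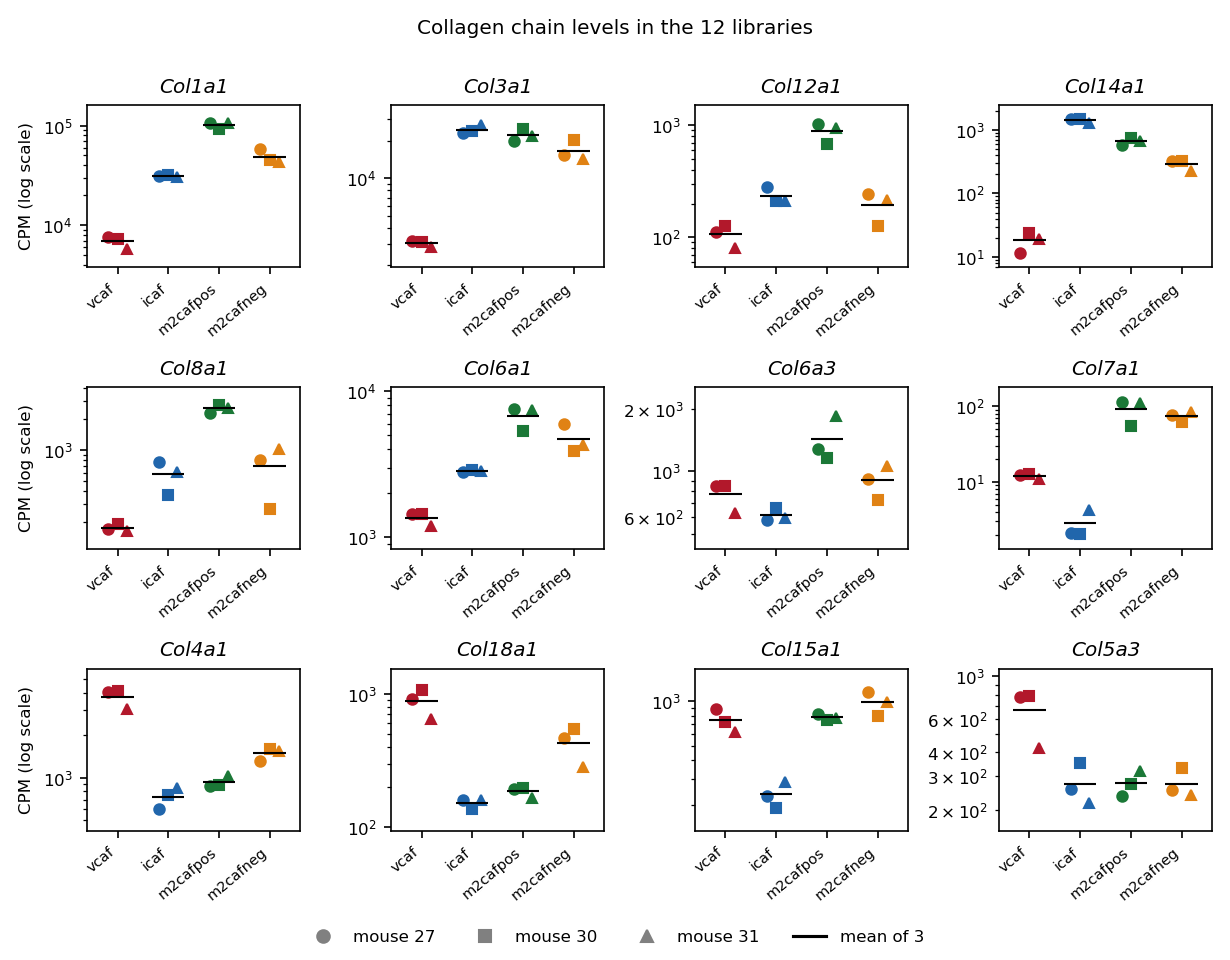
Each of 12 panels gives the CPM (log scale) of a chain in each library, with points shaped by mouse, populations along the x axis and a line at the mean of the 3 libraries. Col14a1 peaks in icaf (1273 to 1471 CPM), Col12a1 and Col8a1 in m2cafpos, and Col4a1 and Col18a1 in vcaf.

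When each population was tested against each of the other 3 in turn, the extremes fell on different chains. In vcaf 5 chains were highest against each other population (21.4% of all genes were): Col4a1, Col4a2, Col18a1, Col5a3 and Col20a1. Col5a3 and Col20a1 left that list with median-of-ratios scaling, and Col18a1 and Col20a1 with edgeR, whereas the mouse as a block added Col4a6. In vcaf 14 chains were lowest (7.17% of all genes), among them Col1a1, Col1a2, Col3a1, Col5a1, Col5a2, Col6a1, Col6a2, Col12a1 and Col14a1. Col12a1 left that list with no filter and without vcaf mouse 31 or m2cafneg mouse 27 or 31, and Col6a2 without vcaf mouse 31. Col8a2 left it with no filter, with the epithelial covariate, and without any vcaf library or icaf mouse 27 or 31. Col23a1 left it with that covariate, while median-of-ratios scaling, TMM or edgeR added Col16a1. In icaf 3 chains were highest (4.74% of all genes), Col14a1, Col6a6 and Col28a1. Col6a6 left that list with edgeR, with no filter, with a pseudocount of 0.1, and without icaf mouse 30 or 31 or m2cafneg mouse 27 or 31, and both Col6a6 and Col28a1 left it with the epithelial covariate. In icaf 5 chains were lowest (3.83% of all genes), Col7a1, Col11a1, Col15a1, Col4a2 and Col25a1. Of these, Col4a2 and Col25a1 left the list with no filter and without icaf mouse 27 or 30 or m2cafpos mouse 27 or 31. Col25a1 also left it with a filter of 5 CPM, and Col7a1 and Col11a1 left it with the epithelial covariate. In m2cafpos 8 chains were highest (1.71% of all genes), Col1a1, Col1a2, Col5a2, Col12a1, Col8a1, Col8a2, Col6a3 and Col23a1. With median-of-ratios scaling there were 13, and with the mouse as a block 11, the added chains being Col5a1, Col6a1 and Col11a1. With the epithelial covariate only Col12a1 and Col8a2 of the 8 stayed. Col1a1 left the list without m2cafpos mouse 27 or m2cafneg mouse 31, and Col6a3 without m2cafpos mouse 27 or 31 or m2cafneg mouse 27 or 30. No chain was lowest in m2cafpos by limma (5.09% of all genes were) and none by median-of-ratios scaling or edgeR, while 1, Col4a5, was lowest at an unadjusted p under 0.05 in each test and by the adjusted p without m2cafpos mouse 30. No chain was lowest in m2cafneg by limma (0.155% of all genes were), by edgeR or at an unadjusted p under 0.05 in each test.

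Ratios of chains within a library do not depend on scaling between libraries. The permutations treated libraries as exchangeable and did not pair them by mouse. The same mice gave libraries to every population, so mice entered more than once. The CPM ratio of Col6a3 to Col6a1 was 0.592, 0.592 and 0.533 in vcaf, 0.206, 0.231 and 0.209 in icaf, 0.171, 0.215 and 0.250 in m2cafpos, and 0.153, 0.187 and 0.247 in m2cafneg. The vcaf ratios lay above all others, with a log2 difference of 1.48 from the other 9 libraries (exact two-sided permutation p = 0.00909, adjusted p = 0.0549). The ratio of Col3a1 to Col1a1 was 0.752, 0.753 and 0.878 in icaf, against 0.186, 0.269 and 0.206 in m2cafpos and 0.261, 0.455 and 0.334 in m2cafneg. Here icaf lay above both m2caf populations, with a log2 difference of 1.54 (exact permutation p = 0.0238, adjusted p = 0.0549). The ratio of Col14a1 to Col1a1 was 0.0474, 0.0463 and 0.0422 in icaf, against 0.00534, 0.00789 and 0.00637 in m2cafpos and 0.00548, 0.00724 and 0.00531 in m2cafneg, a log2 difference of 2.87 with the same exact permutation p of 0.0238.

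Relative to Col1a1, the ratio of Col5a1 in vcaf differed from the other 9 libraries by 1.27 on the log2 scale and that of Col12a1 by 1.29 (exact permutation p = 0.00909 each). The ratio of Col4a1 to Col4a2 stayed between 1.57 and 2.06 in all 12 libraries, while the CPM of Col4a1 itself spanned 6.86-fold. In vcaf the log2 difference of that ratio from the other 9 libraries was 0.02 (exact permutation p = 0.782), and in icaf it was 0.22 from both m2caf populations (exact permutation p = 0.0238, adjusted p = 0.0549). In all, 30 ratio comparisons were made, and after adjustment over these 30 none fell under 0.05. However, 13 comparisons had an unadjusted exact p under 0.05 and an adjusted p of 0.0549. The 10 comparisons of 3 libraries against 3 cannot give a p under 0.10. For 3 libraries against 9 the smallest possible exact permutation p is 0.00909, and for 3 against 6 it is 0.0238.

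The enzymes that make collagen were mostly lower in vcaf, like the fibril chains. Of 18 genes for collagen hydroxylation and folding, 16 were lower in vcaf (14.2% of all genes were) and 2 higher (53.3% of all genes), with a median log2 fold change of -0.81 beside 0.38 over all genes. Plod2, the telopeptide lysyl hydroxylase, averaged 24.6 ± 6.20 CPM in vcaf, 128 ± 53.8 CPM in icaf, 213 ± 31.0 CPM in m2cafpos and 134 ± 13.0 CPM in m2cafneg (log2 fold change in vcaf -2.59, limma adjusted p = 7.68e-07). P3h2, a prolyl 3-hydroxylase that acts on type IV collagen, was an exception and was higher in vcaf, like Col4a1 and Col4a2, at 12.3 ± 1.299 CPM in vcaf, 0.878 ± 0.203 CPM in icaf, 0.590 ± 0.368 CPM in m2cafpos and 1.93 ± 0.632 CPM in m2cafneg (2.70, limma adjusted p = 6.36e-08). P4ha2, a catalytic chain of prolyl 4-hydroxylase, and Fkbp14, a prolyl isomerase, were lower in vcaf (-1.41 and -2.07). In icaf 2 of the 18 were higher and 4 lower, and in m2cafpos against m2cafneg 5 were higher and 2 lower.

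Among 8 genes that cleave propeptides or help it, 7 were lower in vcaf (14.2% of all genes) and 5 higher in icaf (12.1% of all genes). Pcolce2, an enhancer of procollagen C-proteinase, averaged 1.49 ± 0.237 CPM in vcaf, 568 ± 40.1 CPM in icaf, 13.6 ± 5.82 CPM in m2cafpos and 75.1 ± 65.3 CPM in m2cafneg. It was higher in icaf than in both m2caf populations (log2 fold change 4.30 ± 0.39, limma adjusted p = 7.89e-06) and lower in m2cafpos than in m2cafneg (-2.12, adjusted p = 0.00704). Its homologue Pcolce averaged 1445 ± 159 CPM in vcaf, 3524 ± 250.2 CPM in icaf, 2879 ± 162 CPM in m2cafpos and 2261 ± 425 CPM in m2cafneg and was also higher in icaf (0.47, limma adjusted p = 0.0224), a call that ended without icaf mouse 27 or 31 (adjusted p = 0.0978 and 0.0558). Tll2, a tolloid-like proteinase, was higher in icaf (1.92) at a mean of 4.28 CPM, and Adamts14, which removes the N-propeptide, was lower in vcaf (-1.46).

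Of 7 cross-linking genes, 6 were lower in vcaf (14.2% of all genes) and 3 higher in m2cafpos than in m2cafneg (3.51% of all genes). Over all 7 lists, 17 genes were higher in m2cafpos, against 2 with the epithelial covariate. Lox, a lysyl oxidase, averaged 19.5 ± 5.44 CPM in vcaf, 260.3 ± 26.8 CPM in icaf, 569 ± 84.4 CPM in m2cafpos and 296 ± 18.02 CPM in m2cafneg. It was lower in vcaf (log2 fold change -4.13, limma adjusted p = 2.37e-10), lower in icaf (-0.65) and higher in m2cafpos (0.93), the order of Col1a1 and Col1a2. Loxl1 was likewise lower in vcaf (-4.23). Loxl3 was higher in m2cafpos than in m2cafneg (1.48, limma adjusted p = 0.00117), and Loxl4 was higher in icaf (1.74). Of 8 procollagen export genes, 4 were higher in vcaf (53.3% of all genes) and 4 lower (14.2%), and Sec24d and Sec31a, coat proteins of the vesicles that leave the endoplasmic reticulum, were the lowest of these (-0.998 and -0.89), whereas Sec23a was at -0.59 and Trappc2 at 0.73.

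Of 9 tested receptor genes, 3 were higher and 2 lower in vcaf (53.3% and 14.2% of all genes), 3 higher and 3 lower in icaf (12.1% and 14.2%), and 2 higher and 2 lower in m2cafpos against m2cafneg (3.51% and 22.6%). Itga1, the integrin chain with a preference for type IV collagen, averaged 372 ± 74.3 CPM in vcaf, 4.16 ± 1.15 CPM in icaf, 33.3 ± 13.4 CPM in m2cafpos and 43.2 ± 25.8 CPM in m2cafneg (log2 fold change in vcaf 4.33, limma adjusted p = 1.32e-06). Itga11, the integrin chain of fibroblasts that binds fibrillar collagen, averaged 8.74 ± 1.62 CPM in vcaf, 257 ± 16.6 CPM in icaf, 172 ± 11.5 CPM in m2cafpos and 104 ± 25.0 CPM in m2cafneg (-4.11, limma adjusted p = 3.30e-10). Itgb1, the partner of both, was higher in vcaf (1.18), and Mrc2, a receptor that takes up collagen for degradation, was lower in vcaf (-2.52) and in icaf (-1.14).

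Collagenases and related proteinases were lower in vcaf and in icaf, with 5 of 6 lower in each comparison (14.2% of all genes in each), and 3 of 6 were higher in m2cafpos than in m2cafneg (3.51% of all genes). Mmp13, which cleaves fibrillar collagen, averaged 3.34 ± 2.97 CPM in vcaf, 2.58 ± 2.78 CPM in icaf, 212 ± 61.7 CPM in m2cafpos and 68.4 ± 36.1 CPM in m2cafneg, a log2 fold change of -5.29 ± 0.52 in icaf (limma adjusted p = 1.41e-05). Its difference between m2cafpos and m2cafneg was 1.74 (adjusted p = 0.0496), a call that ended without vcaf mouse 31, icaf mouse 27, any m2cafpos library, or m2cafneg mouse 30 or 31 (limma adjusted p 0.0600 to 0.162). Mmp2 was lower in vcaf (-4.27), as were Ctsk (-2.85) and Mmp14 (-1.19). Of 11 partners of type IV in the basement membrane, 3 were higher in vcaf (53.3% of all genes) and 6 lower (14.2%). Nid2, which bridges laminin and type IV collagen, was higher in vcaf (1.33, limma adjusted p = 1.64e-06), whereas Nid1 (-1.03), Lama2 (-1.65) and Hspg2 (-1.27) were lower.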

How the data were processed

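RNA was sequenced from 12 sorted libraries, 4 populations of 3 mice each. The deposited values are CPM made by the authors, per the table itself: each column sums to 1000000 over 55487 genes, once 287 repeated lines of the 55774 are dropped. Per the submitters' processing notes, bcl2fastq, DRAGEN and the build mm10 were used. The sources used here do not give the counting tool, its use of strand or the annotation. Every deposited CPM value came out as a whole number of reads within 0.001 reads (100% in each library), which gave the reads for edgeR. The title 27_vacf was taken to mean vcaf, mouse 27.

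Kept genes (15456) reached 1 CPM in 3 or more libraries. limma 3.58.1 (R 4.3.3) was run on log2(CPM + 1) with a mean per population, contrasts and eBayes with a trend (8 residual and 4.29 prior degrees of freedom), two-sided, with Benjamini-Hochberg adjustment over all kept genes and a threshold of 0.05. The fit was tested on simulated data in which few genes changed, in vcaf only, with no effect of the mouse. That setting was simpler than these data. Ratios were compared by exact permutation in scipy 1.17.1. Alternatives were another pseudocount, no filter and a stricter filter, median-of-ratios and TMM scaling, a total without collagen reads, edgeR 4.0.16 on the recovered reads, the mouse as a block, the luminal epithelial sum as a covariate, and leaving out each library.

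Library titles carry the numbers 27, 30 and 31 and the labels' protocols mention 3 mice, so equal numbers were taken as the same mouse, which no label says outright. Deviations from the population means correlated across genes with r of 0.0843 to 0.452 (median 0.293) in 18 pairs of the same mouse and had a median r of -0.149 in 36 pairs of different mice. Genes, classes, pathway lists and comparisons were chosen with earlier results of these data known. Values in every library are given for the 3 most abundant chains of each class and the 6 largest changes past the threshold in each comparison. Positions are from GENCODE on GRCm38. Col9a3, Col10a1, Col20a1 and Col4a3 share exon bases with another gene, so their reads are uncertain, although Tcfl5 at Col9a3 reached at most 0.198 CPM. Col4a1, Col4a2, Col5a1 and Col15a1 are among other chains that share exon bases.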

Additional observations from a re-analysis of the deposited data

How the results depend on the processing

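Of 92 fold changes of single chains, 57 kept their direction and their side of the threshold under every alternative, and 80 did so whenever 1 library was left out. The 92 were the calls in the 3 comparisons and a few of the values without a call. Other values without a call, such as that of Col4a6 in icaf, were not counted, although some gained a call. With the mouse as a block, 28 chains were lower in icaf (24 without it), 13 were higher in m2cafpos (10 without it) and 39 passed the F test (38 without it). The block changed no other call of a chain in the 3 comparisons or the F test, and it moved the chains highest in vcaf to 6 and in m2cafpos to 11, and among pathway genes it added 2 calls in vcaf, 5 in icaf and 8 in m2cafpos. In vcaf 8238 genes were higher and 2193 lower, against 3566 and 3852 with median-of-ratios scaling, 3639 and 3770 with TMM, 3665 and 3583 with edgeR, and 3723 and 1317 with the epithelial covariate. In icaf 1872 were higher and 2191 lower, against 1156 and 1248 with the covariate, and 1184 to 1977 and 1357 to 2296 with 1 library left out. In m2cafpos 542 were higher, against 1291 with median-of-ratios scaling, 1177 with TMM, 952 with edgeR, 101 with the covariate and 300 to 565 with 1 library left out. In m2cafpos 3499 were lower, against 1314, 1409, 1136 and 242 with those 4 settings, 2231 with no filter, 2063 with a total without collagen reads and 1941 to 3654 with 1 library left out. With the covariate 4 chains were higher and 3 lower in m2cafpos, 2 of the 7 newly so, and 19 of the 24 calls ended. Chains highest in vcaf numbered 5, against 3 with median-of-ratios scaling and 3 with edgeR. Chains highest in icaf numbered 3, against 1 with the covariate, and chains lowest in icaf 5, against 3 with no filter, 3 with the covariate and 3 to 6 with 1 library left out. Chains highest in m2cafpos numbered 8, against 13 with median-of-ratios scaling or TMM and 4 with the covariate, and chains lowest there 0 to 1 with 1 library left out. Col13a1, highest in m2cafneg, left 0 such chains with edgeR or the covariate. Pathway genes higher in icaf numbered 18, against 10 with the covariate. Those higher in m2cafpos numbered 17, against 10 with no filter, 32 with median-of-ratios scaling, 30 with TMM, 26 with edgeR, 2 with the covariate and 10 to 19 with 1 library left out. Those lower numbered 8, against 5 with median-of-ratios scaling, TMM or edgeR and 1 with the covariate. The collagen share of reads without Col1a1 was 1.71% in vcaf, 4.51% in icaf, 7.39% in m2cafpos and 4.55% in m2cafneg, and of protein-coding reads 7.67% in icaf. The log2 fold change of Col15a1 in vcaf turned to -0.0224 with median-of-ratios scaling, -0.00973 with TMM and -0.00935 with edgeR, and that of Col9a1 turned to -0.28 in vcaf and 0.0369 in m2cafpos with the covariate. Apart from these values the cause was not tested. With 3 mice per population, a difference that missed the threshold is not shown to be absent.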
